A study of Rattus norvegicus with 30 samples.

Results

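The autophagy core and receptor genes described here are 10 genes of the pathway that encloses cytoplasm in a membrane and delivers it to the lysosome: Sqstm1, Map1lc3b, Gabarapl1, Gabarap, Becn1, Ulk1, Atg3, Atg5, Atg7 and Wipi1. They were chosen by name, with earlier results of these data known. Every probe set (a group of short oligonucleotides on the array that reports 1 transcript) annotated to 1 of these symbols alone was taken. This gave 20 of 31099 probe sets, for 9 of the 10 genes (of 14218 genes named on the array). The only probe set of Map1lc3b is also annotated to Map1lc3b2, so it is described separately and enters no count. After a filter on dim signals 19 of the 20 remained, of 21226 probe sets in all. The probe set removed was 1371220_at of Sqstm1, which was above the filter line on 0 arrays.

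Transcripts were measured in primary rat hepatocytes, bought frozen, from male Sprague Dawley rats and cultured on collagen under a Matrigel overlay. On day 3 of culture the wells received chlorpromazine HCl, a phenothiazine antipsychotic and cationic amphiphilic drug, at 0.8 or 20 µM, or the vehicle dimethyl sulfoxide (DMSO) at 1%. After 24 or 48 h RNA was extracted from 5 wells per combination and hybridised well by well, which gave 30 arrays in 6 groups. The protocol states that dosing solutions of every dose were made in 1% DMSO. The wells are described as independent cultures and separate animals are not named, and the p-values therefore refer to the spread from well to well. For 1 array, vehicle replicate 2 at 24 h, the title says 2 h and the time field says 24 h, and the time field was followed.

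In autophagy, the kinase ULK1 starts the process, and a lipid kinase complex built on beclin 1 (Becn1) marks the forming membrane with phosphatidylinositol 3-phosphate, which WIPI proteins bind. ATG7, ATG3 and the ATG5 conjugate work as a ubiquitin-like system that attaches ATG8 proteins (LC3 and GABARAP families) to that membrane. The receptor p62, encoded by Sqstm1, binds ubiquitinated cargo and ATG8 proteins and is itself degraded with the cargo. Liver cells rely on autophagy during fasting and for clearing damaged organelles and protein aggregates. The arrays report transcript levels, not protein levels or the rate at which autophagosomes form and are cleared.

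The promoter windows of 5 members are shown: genes that rose at 20 µM (Sqstm1, Gabarapl1, Gabarap) and genes whose leading probe set did not pass the test (Atg3, Atg5). These windows were picked with the results known, and Atg5 rose on another probe set at 48 h. Ulk1 and Wipi1, whose leading probe sets did not pass either, and Atg7, which rose at 48 h, had no match to the motifs below. No link between a motif and a change was tested. Each window is read 5′ to 3′ on the gene's strand, from 250 bases before to 50 bases after the transcript start, from RefSeq on GRCr8, where 9 of the 10 members matched an entry and Becn1 was the one not matched. Capitals mark matches, on either strand, to the E-box CACGTG, a sequence bound by MiT/TFE factors such as TFEB, or to the core of the antioxidant response element, TGACNNNGC, bound by NRF2. The windows are chr10:35037701-35038000 (minus strand) for Sqstm1, chr4:164666082-164666381 (plus strand) for Gabarapl1, chr10:55213215-55213514 (plus strand) for Gabarap, chr11:69159231-69159530 (minus strand) for Atg3 and chr20:49380585-49380884 (plus strand) for Atg5.
Sqstm1: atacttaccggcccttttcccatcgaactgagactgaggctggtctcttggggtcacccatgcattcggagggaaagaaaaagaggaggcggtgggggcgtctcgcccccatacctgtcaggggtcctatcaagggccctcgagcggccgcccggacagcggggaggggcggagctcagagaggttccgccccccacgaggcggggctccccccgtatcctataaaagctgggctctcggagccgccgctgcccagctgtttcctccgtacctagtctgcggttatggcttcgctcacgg
Gabarapl1: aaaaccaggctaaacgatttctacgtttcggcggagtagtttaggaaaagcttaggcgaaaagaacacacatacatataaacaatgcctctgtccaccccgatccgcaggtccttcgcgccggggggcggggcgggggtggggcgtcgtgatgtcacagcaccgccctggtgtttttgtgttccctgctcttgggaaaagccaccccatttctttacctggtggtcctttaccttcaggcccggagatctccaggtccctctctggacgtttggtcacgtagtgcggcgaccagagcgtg
Gabarap: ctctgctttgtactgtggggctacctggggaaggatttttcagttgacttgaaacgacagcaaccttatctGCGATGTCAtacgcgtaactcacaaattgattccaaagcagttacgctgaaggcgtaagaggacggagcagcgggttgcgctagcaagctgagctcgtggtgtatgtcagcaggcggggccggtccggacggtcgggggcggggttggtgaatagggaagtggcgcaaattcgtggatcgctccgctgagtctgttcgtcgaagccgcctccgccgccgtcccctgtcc
Atg3: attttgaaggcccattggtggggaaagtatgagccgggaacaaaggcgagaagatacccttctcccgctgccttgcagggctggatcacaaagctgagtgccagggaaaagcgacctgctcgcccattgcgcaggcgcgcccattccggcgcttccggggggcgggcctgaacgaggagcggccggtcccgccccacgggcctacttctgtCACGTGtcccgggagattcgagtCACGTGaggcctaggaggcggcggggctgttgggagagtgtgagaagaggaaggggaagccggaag
Atg5: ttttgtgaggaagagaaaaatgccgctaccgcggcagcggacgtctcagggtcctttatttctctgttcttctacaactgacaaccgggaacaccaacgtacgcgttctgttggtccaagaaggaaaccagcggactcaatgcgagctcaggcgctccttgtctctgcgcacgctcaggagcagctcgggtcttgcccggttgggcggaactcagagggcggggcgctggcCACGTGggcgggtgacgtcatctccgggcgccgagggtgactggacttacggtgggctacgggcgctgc
The E-box occurred at -39 and -16 in Atg3 and at -19 in Atg5, counted from the transcript start, and in none of the other 7 matched windows. The antioxidant response element core occurred on the minus strand at -179 in Gabarap and on the plus strand at -8 in Map1lc3b. Of 33469 RefSeq rat windows of the same length, 6.42% held the E-box and 12.1% the antioxidant response element core. There was 1 window per matched gene. Those of Map1lc3b, Atg7 and Wipi1 lie inside the span of the gene in RefSeq, so an outer start of these genes was not read. A match, or its absence from this window, is a description only.

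At 20 µM the transcripts of the receptor Sqstm1 and of the ATG8 proteins Gabarapl1 and, at 48 h, Gabarap were higher than in vehicle wells. So were Becn1 at 24 h and, at 48 h, Atg7 on its brightest probe set and Atg5 on 1 of 3. No probe set of Atg3, Ulk1 or Wipi1 passed the test in either direction, though the Ulk1 changes were all below 0. Not passing does not show an absence of change, and differences between roles were not tested. A probe set is said to rise or fall, or to be called, where the limma adjusted p over all 21226 probe sets was under 0.05. At 24 h 5 of the 19 member probe sets (26.3%) rose, against 9.12% of all probe sets, and 0 fell, against 8.24% of all. At 48 h 7 of 19 (36.8%) rose, against 14.4% of all, and 0 fell, against 12.4% of all. The median log2 change of the 19 was 0.10 at 24 h, against -0.0054 over all probe sets, and 0.09 at 48 h, against 0.0092 over all. Counted by each gene's brightest probe set, 3 of 9 genes rose at 24 h (Sqstm1, Gabarapl1, Becn1) and 4 of 9 at 48 h (Sqstm1, Gabarapl1, Gabarap, Atg7). The share of all genes counted in this way is not given here, so the gene counts only list which genes rose. The 20 µM and vehicle arrays did not overlap for 2 of the 19 probe sets at 24 h (10.5%, against 13% of all, 2761 of 21226), and for 5 of 19 at 48 h (26.3%, against 20.5% of all). Probe sets of 1 gene share their target, so these counts do not stand for that many separate genes. The shares of all probe sets cover every kept probe set, bright or dim. At 24 h the 5 called member probe sets had standard errors (SE) of 0.06 to 0.08, and the dimmest members 0.17 to 0.26. Gabarap 1370804_at, Atg3, Atg5 1385526_at and Atg7 1392744_at had SEs of 0.07 to 0.08 and were not called. Whether member shares, here and below, differ from those of probe sets of like signal was not tested.

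**Figure D1:**
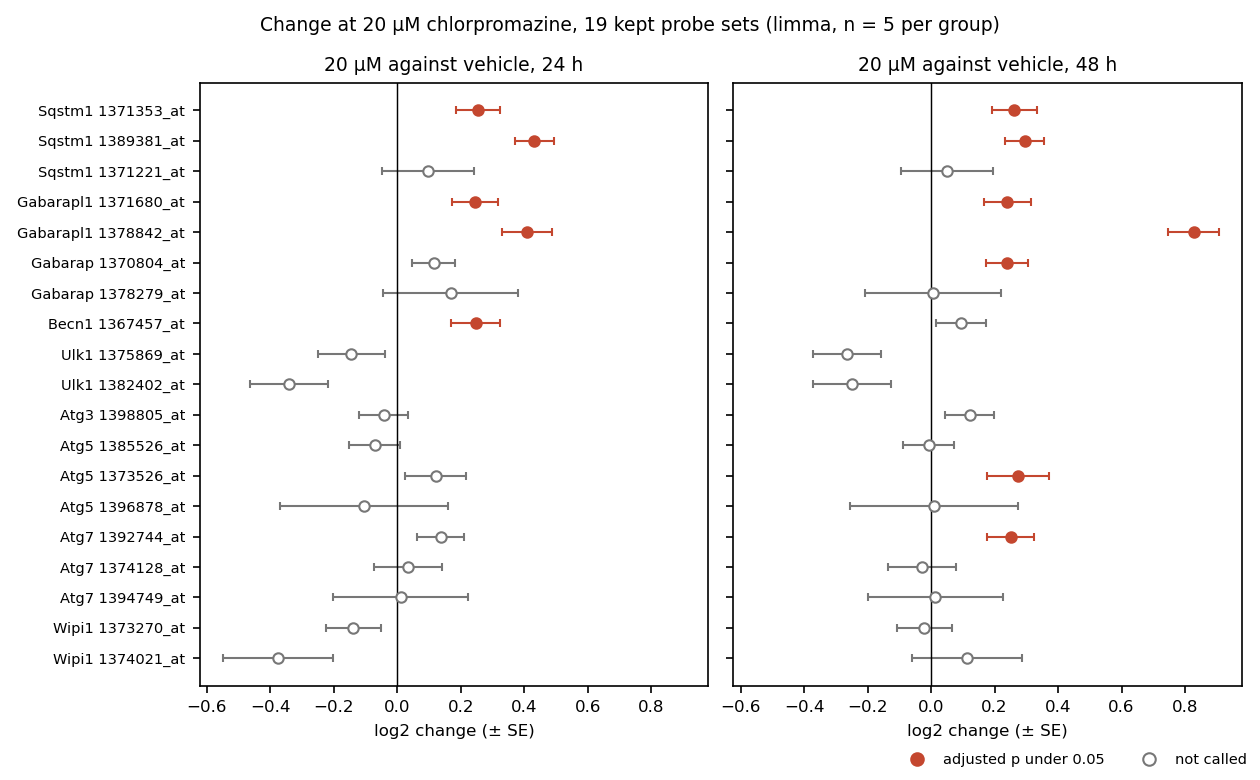
Log2 change ± SE at 20 µM against vehicle at 24 h (left) and 48 h (right) for the 19 kept probe sets, n = 5 arrays per group, with filled red points for adjusted p under 0.05. The 5 called points at 24 h and the 7 at 48 h all lie right of 0, and the Gabarapl1 probe set 1378842_at at 48 h lies farthest right at 0.83.

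The cargo receptor transcript Sqstm1 rose at 20 µM at both times on both of its bright probe sets. On the brightest, 1371353_at, signals at 24 h were 56577, 59216, 67604, 68852 and 81632 at 20 µM, and 52474, 55235, 56047, 56347 and 57608 in vehicle wells. The 48 h signals were 61449, 62257, 62610, 66957 and 71159 at 20 µM, and 47999, 52266, 55733, 57040 and 57648 in vehicle wells. At 24 h 1 array at 20 µM lay below the highest vehicle array, and the 20 µM wells were spread widely. At 48 h the groups did not overlap. The log2 change was 0.25 ± 0.07 (SE) at 24 h, or 1.19-fold (adjusted p = 0.00981), and 0.26 ± 0.07 at 48 h, or 1.2-fold (adjusted p = 0.00473). Without 20 µM replicate 5 at 24 h, the highest array, the 24 h change was 0.18 and was not called (adjusted p = 0.0542).

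The other bright Sqstm1 probe set, 1389381_at, separated the groups at both times. Its signals at 24 h were 17067, 18529, 18819, 19638 and 19706 at 20 µM, and 12936, 13345, 13461, 14579 and 15219 in vehicle wells. At 48 h they were 17841, 18552, 19343, 20694 and 20934 at 20 µM, and 14469, 15303, 16089, 16339 and 17167 in vehicle wells. Every 20 µM array lay above every vehicle array of its time. The change was 0.43 ± 0.06 at 24 h, or 1.35-fold (adjusted p = 2.63e-06), and 0.29 ± 0.06 at 48 h, or 1.23-fold (adjusted p = 0.000309). The dimmer probe set 1371221_at, at 635 to 1115 at 20 µM and 644 to 915 in vehicle wells at 24 h, gave changes of 0.10 at 24 h (adjusted p = 0.738) and 0.05 at 48 h (adjusted p = 0.856), so 1 of the 3 kept Sqstm1 probe sets did not follow the other two. The removed probe set 1371220_at lay between 15.4 and 44.3 at 20 µM and between 22.9 and 115 in vehicle wells at 24 h, and between 16.7 and 43.2 and between 14.6 and 102 at 48 h, and it was not tested.

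**Figure D2:**
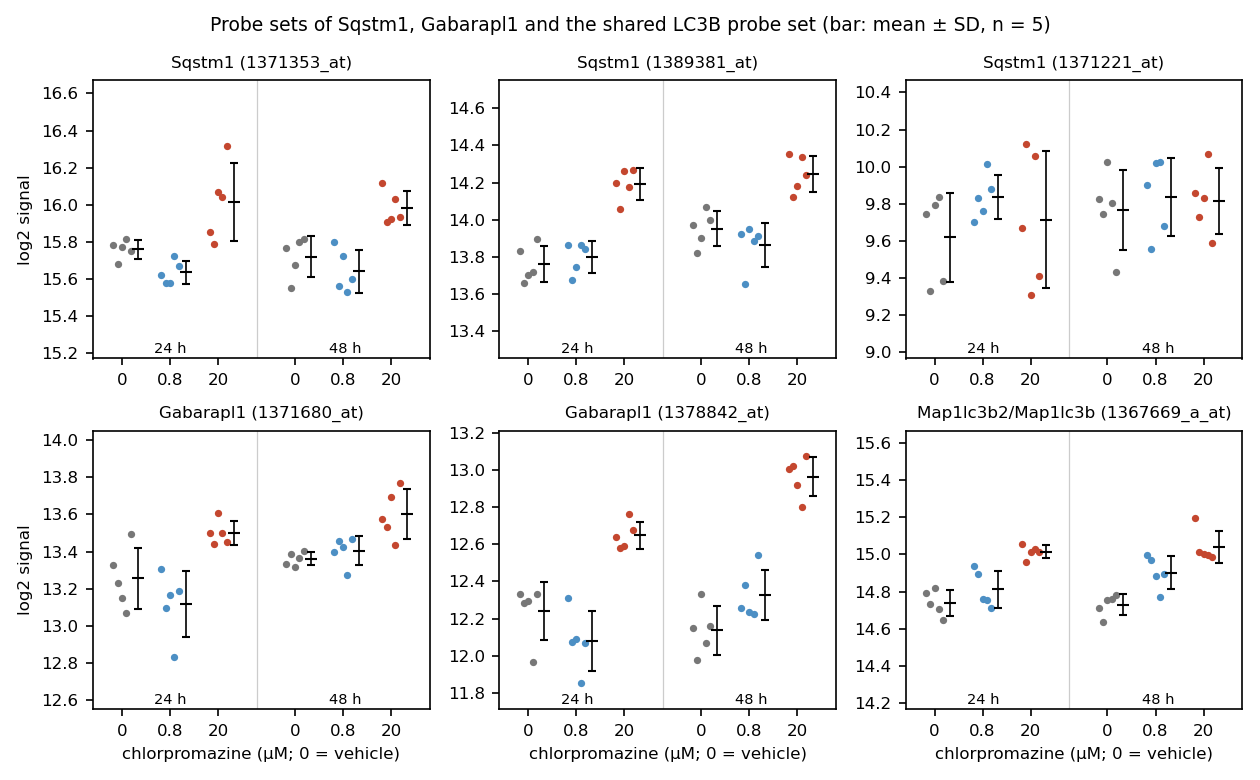
Log2 signal of each array for 3 Sqstm1 probe sets, 2 Gabarapl1 probe sets and the shared Map1lc3b2/Map1lc3b probe set, by chlorpromazine dose (0 is vehicle) at 24 and 48 h, with mean ± SD beside the points (n = 5). All but the Sqstm1 probe set 1371221_at are higher at 20 µM, and the Gabarapl1 probe set 1378842_at shows the widest gap at 48 h.

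The ATG8 protein LC3B, which coats autophagosome membranes, can be followed only on probe set 1367669_a_at, which Map1lc3b shares with Map1lc3b2, so its signal may come from either gene. Signals at 24 h were 31833, 33061, 33092, 33441 and 34106 at 20 µM, and 25608, 26714, 27240, 28345 and 28882 in vehicle wells. The 48 h signals were 32497, 32741, 32872, 33014 and 37549 at 20 µM, and 25491, 26782, 27641, 27797 and 28113 in vehicle wells. The groups did not overlap at either time. The probe set rose by 0.28 ± 0.05 at 24 h, or 1.21-fold (adjusted p = 9.93e-05), and by 0.31 ± 0.05 at 48 h, or 1.24-fold (adjusted p = 8.42e-06).

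Gabarapl1, an ATG8 protein of the GABARAP subfamily, held the largest change among the members. On its brighter probe set, 1371680_at, signals at 24 h were 11136, 11206, 11572, 11589 and 12467 at 20 µM, and 8604, 9102, 9596, 10299 and 11560 in vehicle wells. At 48 h they were 11058, 11833, 12230, 13276 and 13962 at 20 µM, and 10201, 10323, 10553, 10728 and 10816 in vehicle wells. The groups overlapped at 24 h, where the vehicle wells were spread, and did not at 48 h. The change was 0.24 ± 0.07 at both times, or 1.18-fold (adjusted p = 0.0171 at 24 h and 0.0125 at 48 h). The 24 h call was lost without 20 µM replicate 3 (change 0.22, adjusted p = 0.055), without vehicle replicate 3 (0.22, adjusted p = 0.0519) or without vehicle replicate 4 (0.20, adjusted p = 0.0719), and the 48 h call without 20 µM replicate 5 (0.20, adjusted p = 0.0534).

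On the second Gabarapl1 probe set, 1378842_at, signals at 24 h were 6127, 6176, 6374, 6539 and 6941 at 20 µM, and 4005, 4976, 5028, 5153 and 5156 in vehicle wells. The 48 h signals were 7146, 7752, 8218, 8314 and 8615 at 20 µM, and 4036, 4296, 4537, 4573 and 5162 in vehicle wells. No arrays overlapped at either time, and the 48 h gap was the wider. The change was 0.41 ± 0.08 at 24 h, or 1.33-fold (adjusted p = 0.000283), and 0.83 ± 0.08 at 48 h, or 1.77-fold (adjusted p = 6.84e-10). Both probe sets thus rose at both times, but by different amounts at 48 h.

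Gabarap, the founding member of that subfamily, rose at 48 h. On probe set 1370804_at signals at 48 h were 53611, 53665, 55558, 56746 and 62190 at 20 µM, and 41582, 46812, 48241, 50678 and 51793 in vehicle wells. At 24 h they were 48947, 52222, 57872, 59275 and 59474 at 20 µM, and 48107, 48887, 50240, 54385 and 54434 in vehicle wells. The groups were apart at 48 h and overlapped at 24 h. The change was 0.24 ± 0.07 at 48 h, or 1.18-fold (adjusted p = 0.00717), and 0.12 ± 0.07 at 24 h (adjusted p = 0.28), with a 95% interval of -0.02 to 0.25. After quantile normalization the 24 h change was 0.13 and was called (adjusted p = 0.0114). The dim probe set 1378279_at gave 0.17 at 24 h (adjusted p = 0.68) and 0.0064 at 48 h (adjusted p = 0.989), with signals of 317 to 510 at 20 µM and 211 to 616 in vehicle wells at 24 h, and of 417 to 516 and 339 to 498 at 48 h.

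**Figure D3:**
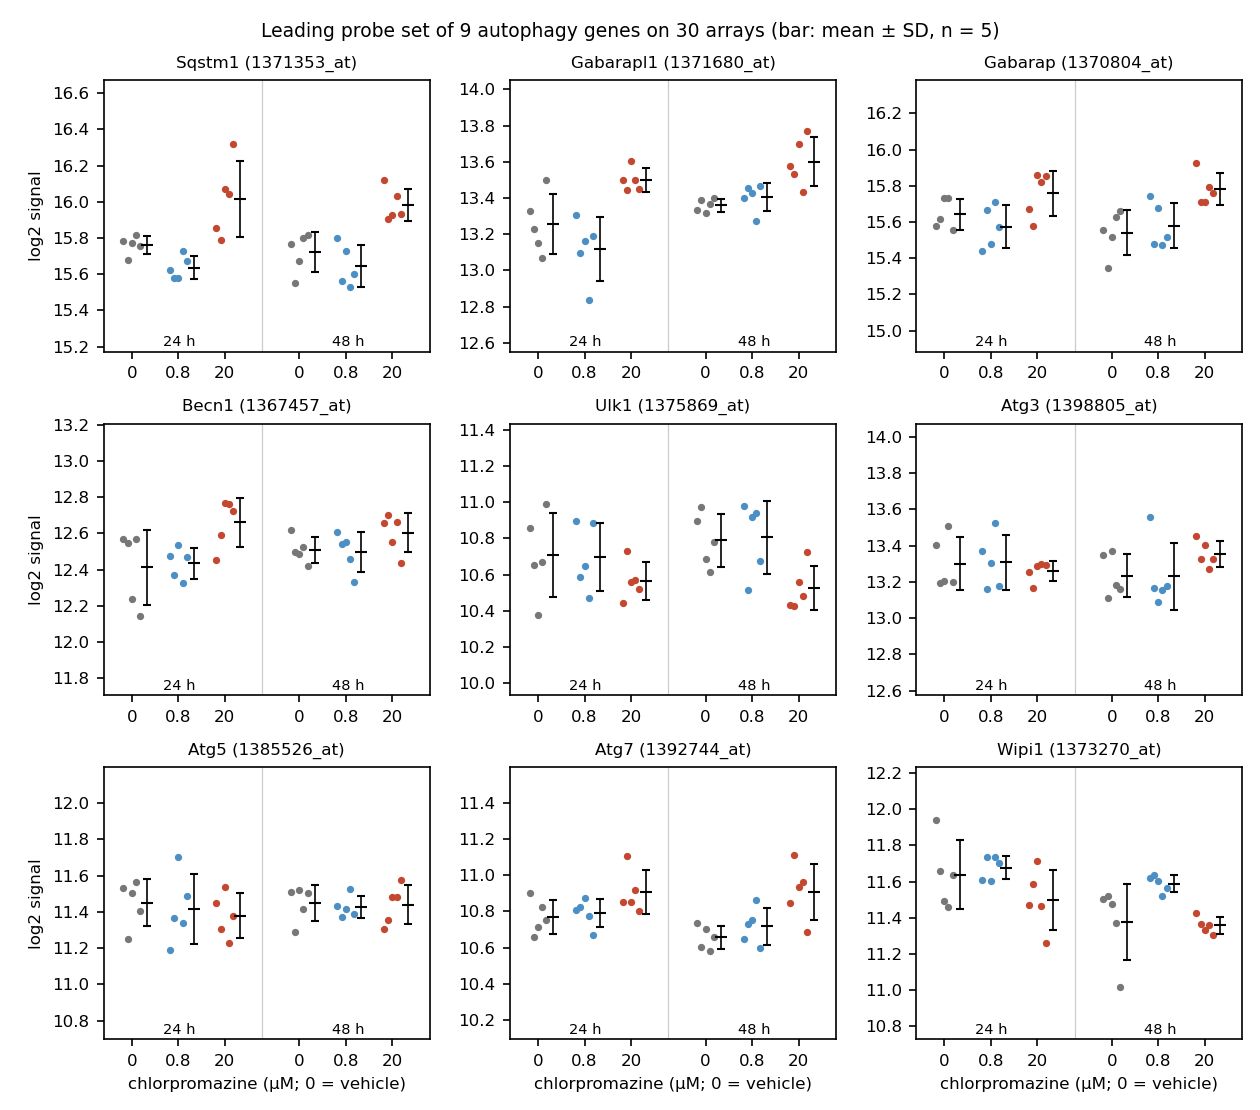
Log2 signal of each of the 30 arrays for the brightest kept probe set of 9 members, by chlorpromazine dose (0 is vehicle) at 24 and 48 h, with mean ± SD beside the points (n = 5). The 20 µM points of Sqstm1, Gabarapl1 and Gabarap lie above the vehicle points at 48 h, those of Ulk1 mostly below, and those of Atg3 and Atg5 among them.

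Becn1, the scaffold of the lipid kinase complex, has 1 probe set, 1367457_at. Its signals at 24 h were 5599, 6177, 6767, 6947 and 6975 at 20 µM, and 4520, 4825, 5990, 6074 and 6076 in vehicle wells. At 48 h they were 5540, 6014, 6465, 6478 and 6671 at 20 µM, and 5477, 5726, 5776, 5900 and 6293 in vehicle wells. The groups overlapped at both times, and at 24 h 2 vehicle wells lay well below the other three. Becn1 rose by 0.25 ± 0.08 at 24 h, or 1.19-fold (adjusted p = 0.0242), and its 48 h change of 0.09 ± 0.08 was not called (adjusted p = 0.431). The 24 h call was lost in a fit on only the groups compared (adjusted p = 0.0991) and without any 1 of 5 arrays, 20 µM replicates 3, 4 and 5 and vehicle replicates 3 and 5, with changes of 0.18 to 0.23 and adjusted p of 0.0588 to 0.109.

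Ulk1, the initiating kinase, had changes below 0 on both probe sets at both times, none of them called. On 1375869_at signals at 48 h were 1378, 1381, 1429, 1509 and 1689 at 20 µM, and 1569, 1646, 1756, 1906 and 2011 in vehicle wells, and at 24 h they ran from 1393 to 1696 at 20 µM and from 1331 to 2030 in vehicle wells. The ranges overlapped at both times, with 4 of the 5 arrays at 20 µM below all vehicle arrays at 48 h. The change was -0.14 ± 0.11 at 24 h (adjusted p = 0.417) and -0.27 ± 0.11 at 48 h (adjusted p = 0.0637), with a 95% interval of -0.48 to -0.05 at 48 h. On 1382402_at the change was -0.34 ± 0.12 at 24 h (adjusted p = 0.0528) and -0.25 ± 0.12 at 48 h (adjusted p = 0.145). These near misses were called under some alternatives only. In the others adjusted p reached 0.169 for 1375869_at at 48 h and 0.16 for 1382402_at at 24 h. At 48 h 1375869_at passed with a stricter filter on dim probe sets, with array weights, in a fit on only the groups compared and without vehicle replicate 4 or 20 µM replicate 5 (adjusted p of 0.0365 to 0.0475). At 24 h 1382402_at passed with the stricter filter, without a trend in the spread, with the array number as a block and without 20 µM replicate 1 or 2 or vehicle replicate 3 (adjusted p of 0.021 to 0.0414).

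Of the conjugation enzymes, Atg7 rose at 48 h on its brightest probe set, Atg5 rose at 48 h on 1 of 3 probe sets, and Atg3 passed no test. For Atg7, the E1-like enzyme that activates ATG8 and ATG12, signals of 1392744_at at 48 h were 1646, 1843, 1955, 1994 and 2210 at 20 µM, and 1531, 1556, 1618, 1666 and 1707 in vehicle wells. Of the arrays at 20 µM 4 lay above all vehicle arrays. The change was 0.25 ± 0.07, or 1.19-fold (adjusted p = 0.0106), against 0.14 ± 0.07 at 24 h (adjusted p = 0.239). Without 20 µM replicate 2 at 48 h, the change was 0.20 and not called (adjusted p = 0.051). The dimmer Atg7 probe sets 1374128_at and 1394749_at had changes between -0.03 and 0.03 at both times (adjusted p of 0.889 to 0.984).

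For Atg5, which joins ATG12 to form part of the enzyme that lipidates ATG8 proteins, the brightest probe set, 1385526_at, had signals of 2394 to 2974 at 20 µM and 2434 to 3033 in vehicle wells at 24 h, and of 2535 to 3058 and 2500 to 2944 at 48 h. Its changes were -0.07 ± 0.08 at 24 h (adjusted p = 0.629) and -0.0080 ± 0.08 at 48 h (adjusted p = 0.959), with a 95% interval of -0.17 to 0.15 at 48 h. Probe set 1373526_at read 1375, 1539, 1586, 1643 and 1739 at 20 µM at 48 h, and 1167, 1240, 1334, 1380 and 1395 in vehicle wells. Of the arrays at 20 µM 1 lay among the vehicle arrays, and the probe set rose by 0.27 ± 0.10, or 1.21-fold (adjusted p = 0.0322). That call was lost without any 1 of 5 arrays, 20 µM replicates 1, 2 and 4 and vehicle replicates 2 and 3 (changes of 0.23 to 0.27, adjusted p of 0.0546 to 0.0949). At 24 h it gave 0.12 (adjusted p = 0.462), and the third probe set, 1396878_at, near the dim end at a mean log2 signal of 8.20 at 20 µM and 8.19 in vehicle wells at 48 h, gave -0.10 at 24 h (adjusted p = 0.853) and 0.01 at 48 h (adjusted p = 0.986). The probe sets differed in their calls at 48 h, so the platform gives no single answer for Atg5. The brightest probe set and 1373526_at were uncorrelated over the 30 arrays (Pearson r = -0.03). The group means of the brightest spanned only 0.07, under its mean within-group SD of 0.12, so this correlation cannot show whether they report the same transcript.

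Atg3, the E2-like enzyme that passes ATG8 to the lipid, read 9185, 9755, 9994, 10024 and 10077 at 20 µM at 24 h on 1398805_at, and 9376, 9403, 9443, 10826 and 11640 in vehicle wells. At 48 h it read 9872, 10263, 10291, 10833 and 11208 at 20 µM, and 8831, 9175, 9292, 10415 and 10608 in vehicle wells. The groups overlapped at both times. The changes were -0.04 ± 0.08 at 24 h (adjusted p = 0.787) and 0.12 ± 0.08 at 48 h (adjusted p = 0.284), with 95% intervals of -0.20 to 0.12 and -0.04 to 0.28.

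Wipi1, a phosphatidylinositol 3-phosphate binding protein of the forming membrane, passed no test at 20 µM against vehicle. On 1373270_at signals at 24 h were 2453, 2828, 2836, 3072 and 3354 at 20 µM, and 2814, 2877, 3187, 3232 and 3936 in vehicle wells, and at 48 h 2533, 2579, 2624, 2638 and 2752 at 20 µM, and 2073, 2653, 2846, 2909 and 2940 in vehicle wells. The groups overlapped at both times, with changes of -0.14 ± 0.09 (adjusted p = 0.317) and -0.02 ± 0.09 (adjusted p = 0.902). The dimmer 1374021_at gave -0.38 ± 0.17 at 24 h (adjusted p = 0.149) and 0.11 ± 0.17 at 48 h (adjusted p = 0.71).

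At 0.8 µM no member probe set was called by limma against vehicle, against 0.283% of all probe sets at 24 h and 1.81% at 48 h. At an unadjusted p under 0.05 there were 2 of 19 at 24 h (against 2126 of 21226 over all) and 3 of 19 at 48 h (against 2705 of 21226). The 2 at 24 h were Gabarapl1 1378842_at (-0.16, adjusted p = 0.494) and Atg7 1374128_at (-0.22, adjusted p = 0.489). The 3 at 48 h were Gabarapl1 1378842_at (0.19, adjusted p = 0.28) and both Wipi1 probe sets, 1373270_at (0.21, adjusted p = 0.267) and 1374021_at (0.38, adjusted p = 0.346). For 1 of the 19 the 0.8 µM and vehicle arrays did not overlap at 48 h (5.3%, against 3.57% of all). This was Wipi1 1373270_at, with a lowest signal of 2940.42 at 0.8 µM and a highest of 2939.99 in vehicle wells. Sqstm1 1389381_at at 0.8 µM read 13090, 13748, 14676, 14911 and 14930 at 24 h and 12869, 15133, 15403, 15541 and 15800 at 48 h. All 5 arrays lay within the vehicle range at 24 h, and 1 lay below it at 48 h. The shared Map1lc3b2/Map1lc3b probe set was at 27926 to 32652 at 0.8 µM and 48 h, with a change of 0.17 ± 0.05 that missed the threshold (adjusted p = 0.0647).

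Set directly against 0.8 µM, the 20 µM wells had 4 member probe sets called at each time, all higher (21.1% of 19, against 5.59% of all probe sets called higher at 24 h and 9.91% at 48 h). At 24 h these were both bright Sqstm1 probe sets, 1371353_at (0.38 ± 0.07, adjusted p = 0.000304) and 1389381_at (0.39 ± 0.06, adjusted p = 2.26e-05), and both Gabarapl1 probe sets, 1371680_at (0.38 ± 0.07, adjusted p = 0.000412) and 1378842_at (0.57 ± 0.08, adjusted p = 4.9e-06). At 48 h they were the same Sqstm1 probe sets (0.34, adjusted p = 0.000465, and 0.38, adjusted p = 1.26e-05), Gabarapl1 1378842_at (0.64, adjusted p = 2.19e-07) and Gabarap 1370804_at (0.20, adjusted p = 0.0322). The Gabarap call was lost without any 1 of 5 arrays, 20 µM replicates 1 and 4 and 0.8 µM replicates 2, 4 and 5 (changes of 0.16 to 0.20, adjusted p of 0.0581 to 0.107), with no filter (adjusted p = 0.0552), with arrays centred on their medians (0.0756) and without a trend in the spread (0.0603). Wipi1 1373270_at read 2533, 2579, 2624, 2638 and 2752 at 20 µM at 48 h, and 2940, 3033, 3106, 3143 and 3184 at 0.8 µM. The groups did not overlap, with 20 µM the lower, and the change of -0.23 ± 0.09 missed the threshold (adjusted p = 0.0583). Vehicle wells at 48 h averaged a log2 signal of 11.38, near the 11.36 at 20 µM and below the 11.59 at 0.8 µM. Under 5 alternatives Wipi1 1373270_at was called lower (adjusted p of 0.00811 to 0.0448). It was called in 0 of 10 fits with 1 array left out (adjusted p of 0.0618 to 0.112). Ulk1 1375869_at at -0.28 ± 0.11 (adjusted p = 0.062) was called lower with the stricter filter (adjusted p = 0.0432), with array weights (0.0317), with 1 probe set per gene (0.0484) and without 0.8 µM replicate 2 (0.0189) or 20 µM replicate 5 (0.0367). In the other settings its adjusted p reached 0.159. Comparisons with vehicle and with 0.8 µM use the same 20 µM arrays, so they are not separate evidence.

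The order of the 6 group means was read within each probe set. For Sqstm1 1389381_at the mean log2 signals, from low to high, were 13.76 in vehicle and 13.80 at 0.8 µM at 24 h, 13.86 at 0.8 µM and 13.95 in vehicle at 48 h, 14.19 at 20 µM at 24 h and 14.25 at 20 µM at 48 h. The SDs were 0.08 to 0.12, so neighbours differed by less than their spread except across the gap of 0.24 between the 48 h vehicle wells and the 24 h wells at 20 µM. For Gabarapl1 1378842_at the order was 12.08 at 0.8 µM at 24 h, 12.14 in vehicle at 48 h, 12.24 in vehicle at 24 h, 12.33 at 0.8 µM at 48 h, 12.65 at 20 µM at 24 h and 12.96 at 20 µM at 48 h. Here the SDs were 0.07 to 0.16, and both the step to the 24 h wells at 20 µM (0.32) and the step on to the 48 h wells (0.31) exceeded them. For Gabarap 1370804_at the 6 means spanned only 15.54 (48 h vehicle) to 15.78 (48 h, 20 µM), with SDs of 0.08 to 0.13. The widest step, 0.12 between the 24 h vehicle wells (SD 0.08) and the 24 h wells at 20 µM (SD 0.13), exceeded only the smaller of its SDs, and every other step was under both.

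Time altered the 20 µM effect for 1 member probe set (5.3% of 19, against 2.72% of all). The change of Gabarapl1 1378842_at at 48 h exceeded that at 24 h by 0.42 ± 0.11 (adjusted p = 0.0358), while the brighter Gabarapl1 probe set 1371680_at gave a difference of -0.0039 ± 0.10 (adjusted p = 0.995). The call on 1378842_at was lost without any 1 of 13 of the 20 arrays: at 24 h 20 µM replicates 1, 2 and 3 and vehicle replicates 1, 2, 3 and 5, and at 48 h 20 µM replicates 1, 2 and 5 and vehicle replicates 1, 2 and 4. The difference then lay between 0.38 and 0.42, with adjusted p of 0.0516 to 0.0783. Sqstm1 1371353_at and 1389381_at gave differences of 0.0080 ± 0.10 (adjusted p = 0.989) and -0.14 ± 0.09 (adjusted p = 0.533), and Gabarap 1370804_at gave 0.12 ± 0.10 (adjusted p = 0.647), so the rise of Gabarap at 48 h and not at 24 h was not shown to differ between the times. The same held for Becn1, called only at 24 h (-0.15, adjusted p = 0.611). It also held for Atg7 1392744_at (0.11, adjusted p = 0.72) and Atg5 1373526_at (0.15, adjusted p = 0.709), called only at 48 h.

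In vehicle wells alone, 1 member probe set was called at 48 h against 24 h (5.3%, against 8.93% of all). Sqstm1 1389381_at was higher by 0.19 ± 0.06 (adjusted p = 0.0441). The call was lost without any 1 of 7 of the 10 arrays, 48 h replicates 1, 3, 4 and 5 and 24 h replicates 2, 3 and 4 (changes of 0.16 to 0.20, adjusted p of 0.0512 to 0.129). Of these, 24 h replicate 2 is the array whose title says 2 h, and without it the change was 0.17 (adjusted p = 0.124). Wipi1 had values below 0 on both probe sets, -0.26 ± 0.09 on 1373270_at (adjusted p = 0.0571) and -0.50 ± 0.17 on 1374021_at (adjusted p = 0.071). The first was called without 48 h replicate 1 or 2 or 24 h replicate 3 or 4 (adjusted p of 0.0329 to 0.0452), and the second without replicate 5 of either time (adjusted p = 0.0329 and 0.0169). With other arrays left out their adjusted p reached 0.219 and 0.174.

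Among the members the brightest probe sets varied together in part. Over the 30 arrays the Pearson correlation of Sqstm1 was 0.86 with Gabarap, 0.57 with Becn1, 0.49 with Gabarapl1, -0.46 with Ulk1 and -0.44 with Wipi1, and that of Gabarap with Gabarapl1 was 0.26. Probe sets of the same gene correlated at 0.82 for the bright Sqstm1 pair and 0.81 for Gabarapl1, at 0.44 for Ulk1, and between -0.15 and 0.21 for the 10 remaining pairs. The 5 probe sets of other genes most like Sqstm1 1371353_at by Pearson correlation were those of Rpl6, a ribosomal protein (0.90), Naca, a chaperone of nascent chains (0.90), Eif4a1, a translation initiation helicase (0.89), Rab1a, a GTPase of transport from the endoplasmic reticulum to the Golgi (0.88), and Psma4, a proteasome subunit (0.88). All these points share arrays and the scaling of each array, so the correlations are descriptions without a test.

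Of 65 further autophagy genes listed by role, 60 had a probe set of their own and 59 were kept. Each of these genes was read on its brightest kept probe set only. Other probe sets of the same gene are not given here and may differ from it. At 24 h 6 rose (10.2%, against 9.12% of all probe sets) and 6 fell (10.2%, against 8.24% of all). At 48 h 13 rose (22%, against 14.4% of all) and 6 fell (10.2%, against 12.4% of all). The called genes of this list thus lay on both sides of 0 at both times, and whether the members differ from them was not tested.

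In the initiation complex 1 of 4 genes was called at 24 h and 2 at 48 h. Ulk2, the second initiating kinase, averaged a log2 signal of 9.50 at 20 µM and 10.02 in vehicle wells at 24 h, a change of -0.52 ± 0.13 (adjusted p = 0.00364), against -0.06 at 48 h (adjusted p = 0.811). Rb1cc1, the scaffold FIP200, fell at 48 h to 11.11 at 20 µM, against 11.47 in vehicle wells (adjusted p = 0.00065), and Atg101, another subunit, rose by 0.23 (adjusted p = 0.0131). None of the 7 kept genes of the nucleation complex was called at either time. Among conjugation genes 1 of 7 was called, Atg12, the partner of ATG5, which rose by 0.24 ± 0.06 at 48 h (adjusted p = 0.00404).

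Among 8 lipid transfer and membrane effector genes, 2 rose at 24 h, and 4 rose and 1 fell at 48 h. Tmem41b, a lipid scramblase of the endoplasmic reticulum, rose at both times, by 0.37 ± 0.07 (adjusted p = 0.000337) and 0.44 ± 0.07 (adjusted p = 1.78e-05). The lipid transfer proteins Atg2b and Atg2a went opposite ways at 48 h, by 0.32 ± 0.10 (adjusted p = 0.0144) and -0.29 ± 0.08 (adjusted p = 0.00796). The remaining ATG8 gene kept passed no test.

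The 10 other cargo receptors had 2 called lower at 24 h and 2 called higher at 48 h. Optn, a receptor of damaged mitochondria and bacteria, was at 13.01 at 20 µM and 13.20 in vehicle wells at 24 h (-0.19 ± 0.05, adjusted p = 0.00454) and at 13.45 at 20 µM and 13.32 in vehicle wells at 48 h (0.13 ± 0.05, adjusted p = 0.04), and the difference between the times of 0.32 ± 0.07 was called (adjusted p = 0.00539). Ncoa4, the ferritin receptor, fell at 24 h by 0.23 ± 0.05 (adjusted p = 0.00135). Bnip3, a receptor on mitochondria, rose at 48 h by 0.44 ± 0.08 (adjusted p = 0.000107), against 0.16 at 24 h (adjusted p = 0.229), and this difference between the times was not called (0.29 ± 0.12, adjusted p = 0.26).

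Of 9 fusion genes, 1 rose and 1 fell at 24 h, and 2 rose and 2 fell at 48 h. Rab7a, the GTPase of late endosomes and lysosomes, fell at both times, by 0.27 ± 0.08 (adjusted p = 0.0112) and 0.62 ± 0.08 (adjusted p = 8.22e-08). Snap29, a SNARE of autophagosome fusion, fell at 48 h by 0.44 ± 0.06 (adjusted p = 1.17e-06). Tecpr1, a tether of autophagosomes to lysosomes, rose at 48 h by 0.90 ± 0.23 (adjusted p = 0.00333), with overlapping arrays.

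Of 13 upstream regulators, 3 rose and 2 fell at each time. Sesn2, a stress-induced inhibitor of mTORC1 signalling, rose by 0.45 ± 0.11 (adjusted p = 0.00364) at 24 h and 0.67 ± 0.11 (adjusted p = 1.6e-05) at 48 h. Prkaa1 and Prkaa2, the catalytic subunits of the energy sensor AMPK, fell at 48 h by 0.65 ± 0.05 (adjusted p = 3.12e-11) and 0.73 ± 0.15 (adjusted p = 0.000211). At 24 h Prkaa1 fell by 0.19 ± 0.05 (adjusted p = 0.0145) and Prkaa2 gave -0.03 (adjusted p = 0.925).

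**Figure D4:**
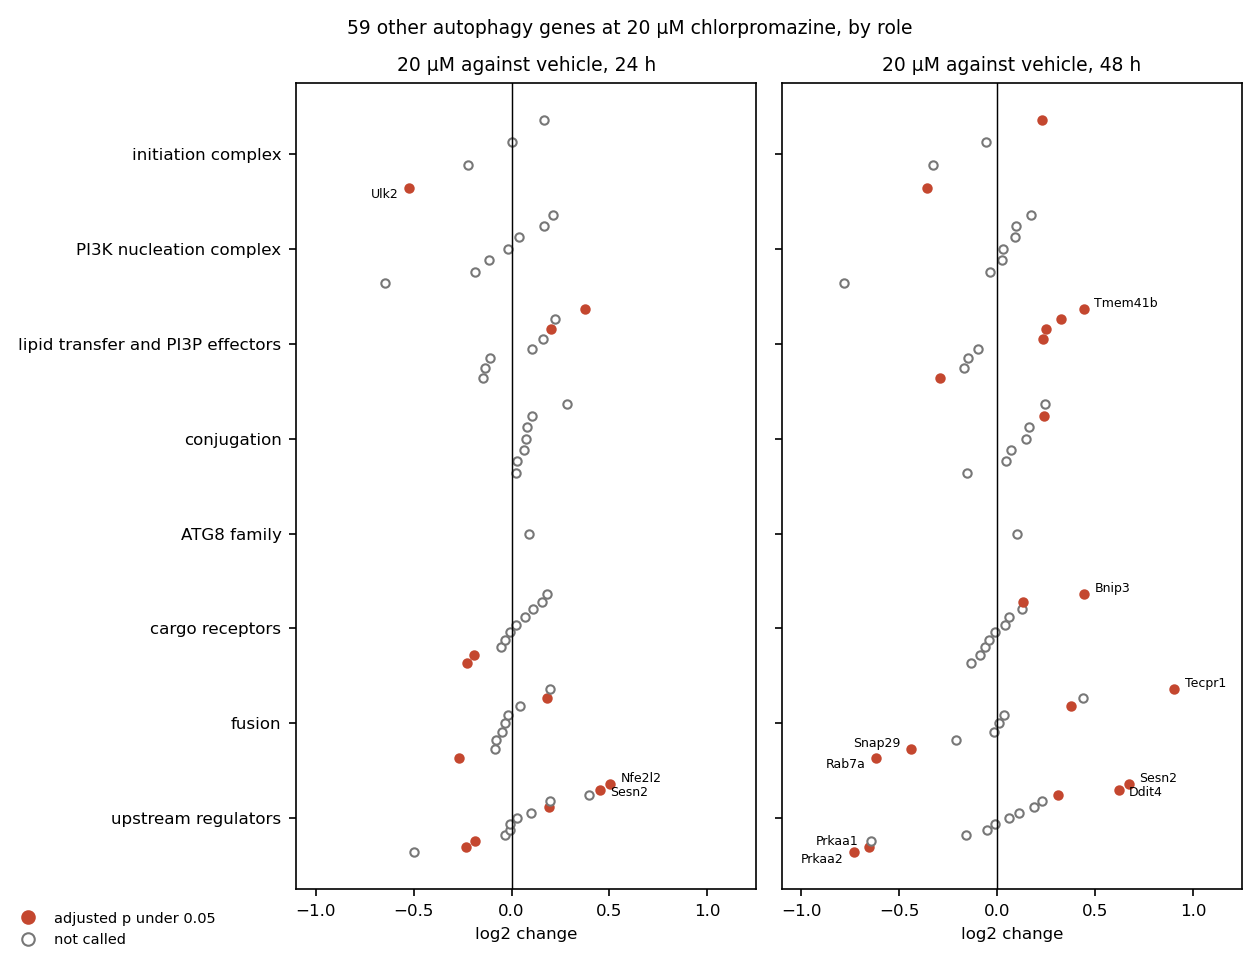
Log2 change at 20 µM against vehicle at 24 h (left) and 48 h (right) for 59 other autophagy genes, 1 point per gene, grouped by role and sorted within it, with filled red points for adjusted p under 0.05 and names for called genes beyond 0.4 in either direction. Called points lie on both sides of 0 in the initiation, lipid transfer, fusion and regulator groups at 48 h, and no point of the nucleation complex is filled.

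The cells carried hepatocyte transcripts: 7 of 8 listed markers had a probe set, all kept, and the mean log2 signal was 15.60 for Apob and 16.55 for Alb, against a dim line of 8.09. At 20 µM against vehicle Apob fell by 0.52 at 24 h and 0.59 at 48 h (adjusted p = 9.94e-06 and 4.63e-07), Fgb fell by 0.25 at 48 h (adjusted p = 0.0349), and the other 5 were not called at either time. Of 6 macrophage (Kupffer cell) markers 4 were kept, and their summed signal at 48 h was 2878 to 3853 at 20 µM and 1867 to 2617 in vehicle wells, without overlap, against 3213 to 3823 and 3083 to 4112 at 24 h. That gap followed Cd68, a lysosomal membrane glycoprotein, which rose by 1.44 ± 0.13 at 48 h (adjusted p = 8.2e-11), while Cd163, Clec4f and Csf1r gave -0.21, -0.22 and -0.35 (adjusted p = 0.559, 0.498 and 0.171). Markers of sinusoidal endothelium (4 of 5 kept) and stellate cells (5 of 6 kept) had summed signals of 1084 to 1435 and 2486 to 3083 at 20 µM at 48 h, and 960 to 1826 and 2429 to 3043 in vehicle wells. At 24 h they were 1371 to 1820 and 2179 to 3045 at 20 µM, and 1743 to 2257 and 2898 to 3305 in vehicle wells. Of 5 bile duct markers 4 had a probe set and 2 were kept. The summed signals of the 4, mostly Epcam, were 9335 to 11017 at 20 µM and 9021 to 10224 in vehicle wells at 24 h. At 48 h they were 11194 to 12568 and 10785 to 12046. Krt19 fell by 1.28 at 24 h (adjusted p = 0.00889), near or below the dim line, with a mean log2 signal of 6.88 at 20 µM and 8.16 in vehicle wells. At 48 h Krt19 gave -0.29 (adjusted p = 0.618). Epcam, the other kept marker, gave 0.08 at 24 h (adjusted p = 0.394) and 0.04 at 48 h (adjusted p = 0.694). No marker was at 0, and Lrat, Krt7 and Spp1 were removed as dim at mean log2 signals of 5.88, 4.65 and 6.07. Their signals still enter the sums of the stellate cell (Lrat) and bile duct (Krt7, Spp1) markers. The part of other cell types in the member results was not tested, and in these bulk cultures fewer cells of a type and less RNA per cell cannot be told apart.

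The median signal per array ran from 380 to 449, and the mean correlation of an array with the others of its group from 0.950 to 0.963 over the kept probe sets. The numbers in the array titles follow the same order of groups in every round of 6, so position within a round and group cannot be told apart.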

How the data were processed

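The deposited table gives linear intensity values (signals) for 31099 probe sets, 57 of them controls, on 30 arrays. They were made with MAS5 per the submitters' processing notes (version not given in the sources used here), and on each array the mean between the 2nd and 98th percentiles is 1500.0. Signals were floored at 16, which 3.86% of values lay below, and taken to log2 with no further normalization. A probe set was kept where 5 or more arrays gave it a signal over the array's 40th percentile (21226). The dim line is the mean over arrays of the log2 of each array's 40th percentile. Symbols come from the platform annotation: 20832 probe sets had 1 symbol, 436 several and 9780 none.

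Groups were compared in limma 3.58.1 (R 4.3.3), with a single model of 6 group means for the 30 arrays, moderated variances that follow the mean signal (eBayes, trend on). In each comparison p-values were adjusted by Benjamini-Hochberg across the kept probe sets and judged at 0.05. The procedure was tested on simulated data. Alternatives covered the floor, filter, normalization, spread model, array weights, arrays in the fit, array order, 1 probe set per gene, a threshold of 0.01 and leaving out each array.

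The members and lists were chosen with earlier results of these data known. All member probe sets are named. Of the other autophagy genes, up to 3 called genes per role with the largest change at 20 µM are named, as are the 5 probe sets most correlated with Sqstm1.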

Additional observations from a re-analysis of the deposited data

Results flagged for a closer look

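In 114 groups of 5 arrays (each member probe set in each group), an array was set apart where its gap to the nearest other array exceeded the 95% critical value of Dixon's test relative to the group's range. This held in 5 groups, and chance gives about 1 in 20. Sqstm1 1389381_at read 13.65 (log2 signal) in replicate 2 at 0.8 µM and 48 h, below the other four at 13.89 to 13.95. Atg3 1398805_at read 13.56 in replicate 1 at 0.8 µM and 48 h, above the others at 13.09 to 13.18. Gabarapl1 1378842_at read 11.97 in vehicle replicate 4 at 24 h, below the others at 12.28 to 12.33. Atg7 1374128_at read 10.11 in vehicle replicate 1 at 24 h, above the others at 9.69 to 9.81. The dim Gabarap 1378279_at read 8.41 in vehicle replicate 5 at 48 h, below the others at 8.92 to 8.96. The 5 values came from 5 different arrays.

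The effect of 20 µM differed between the times for Gabarapl1 1378842_at, by 0.42 (adjusted p = 0.0358, limma interaction). The other Gabarapl1 probe set gave -0.0039 for the same difference (adjusted p = 0.995).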

How the results depend on the processing

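No member's change reversed its direction where it was called, under any alternative or with any 1 array left out, and the counts given here are of member probe sets called. For 20 µM against vehicle, 5 at 24 h became 3 at an adjusted p of 0.01 and 3 to 6 with 1 array left out (3 without 20 µM replicate 3 or 5), and 7 at 48 h became 4 and 5 to 8. Over all probe sets, the 3685 calls at 24 h became 2374 at 0.01 and 3208 to 3603 with 1 array left out. The 5702 calls over all at 48 h became 5206 to 5473 with 1 array left out. For 20 against 0.8 µM at 48 h, 4, all higher, became 8 with the stricter filter and with array weights, of which 2 were lower (Ulk1 1375869_at and Wipi1 1373270_at), and the 2 genes became 5 with 1 probe set per gene. With 1 array left out, the counts were 4 to 5 at 24 h and 3 to 6 at 48 h. Over all probe sets, the left-out fits gave 1920 to 2324 calls at 24 h and 3731 to 3969 at 48 h, against 2333 and 4198. The 1 probe set whose 20 µM effect differed between the times became 0 at 0.01, with no filter, with arrays centred on their medians and without a trend, and 0 to 1 with 1 array left out. The 1 called in vehicle wells over time became 0 at 0.01, with no filter, with centred arrays and with only the groups compared, and 2 with the stricter filter and with the array number as a block, and the 0 genes became 1 with 1 probe set per gene. It was 0 to 2 with 1 array left out. At 0.8 µM it was 0 in every setting run. Where no count over all probe sets is given here or below for a setting, the member count under it describes calls only and is not compared with all probe sets.

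Over all probe sets, the threshold of 0.01 left 2374 of 3685 calls at 20 µM and 24 h, 1363 of 2333 for 20 against 0.8 µM at 24 h, 239 of 577 for the difference between times (291 with centred arrays) and 1027 of 1895 in vehicle wells over time. At 0.8 µM the 60 calls at 24 h became 9 at 0.01, 34 with no filter, 106 with the stricter filter, 4 with centred arrays, 13 without a trend, 6 with only the groups compared, 95 with 1 probe set per gene and 12 to 124 with 1 array left out. The 384 calls at 48 h became 133, 160 with centred arrays, 221 without a trend and 199 to 370 with 1 array left out. Centring arrays moved the split of calls: 2337 higher and 1157 lower at 20 µM and 24 h, against 1935 and 1750 as reported; 1477 and 646 for 20 against 0.8 µM at 24 h, against 1186 and 1147; 84 and 207 for the difference between times, against 40.0% higher; and 3 and 1 for 0.8 µM at 24 h, against 45.0% higher. The causes were not tested. Probe sets near the dim line (Gabarap 1378279_at, Atg5 1396878_at, Atg7 1394749_at, Wipi1 1374021_at) had the widest errors, and 5 arrays per group limit the precision of all values. The labels give no replicate numbers, so no wells were paired by one. With each round of 6 array numbers as a block, no member call was lost. That block added 5 calls: Ulk1 1382402_at at 20 µM and 24 h (-0.34, adjusted p = 0.0272), Becn1 (0.23, 0.0486) for 20 against 0.8 µM at 24 h, Gabarapl1 1371680_at (0.20, 0.0202) and Wipi1 1373270_at (-0.23, 0.0409) for the same at 48 h, and Wipi1 1373270_at in vehicle wells over time (-0.26, 0.0387).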
